A study of Mus musculus with 2 samples.

Results

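The circadian clock genes described here are 10 genes read by 17 probes, out of 16928 genes and 25697 probes on Illumina MouseRef-8 v2 bead arrays. They were chosen by symbol from a fixed list of clock activators, repressors and output factors: Arntl, Clock, Nr1d1, Nr1d2, Per1, Per2, Per3, Dbp, Tef and Hlf. The list was drawn up with the signals of these same arrays known, so their differences are a description and support nothing by themselves. The tissue was the glandular stomach of female mice aged 26 weeks, labelled AGR2 wild-type or AGR2 null, with 1 array per label. No replicate exists for either label, so no test was possible and no difference could be set against the spread between animals; having 2 arrays in all limits the precision throughout. The strain, the design of the deleted allele, the hour of collection, and the lighting and feeding schedules do not appear in the labels.

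The circadian clock of mammalian cells is a transcriptional loop. The proteins ARNTL (also called BMAL1) and CLOCK pair on E-box elements and switch on the Per and Cry genes, whose products return to block them. The same pair drives Nr1d1 and Nr1d2, the REV-ERB nuclear receptors, which bind RRE elements and shut Arntl off, so that Arntl mRNA peaks around the time when mRNA of these repressors is low. The output factors DBP, TEF and HLF, of the PAR bZIP family, act on D-box elements and carry the rhythm to metabolic genes. In peripheral organs of mice kept in light-dark cycles, Arntl and Clock mRNA peak near dawn, Nr1d1, Dbp, Nr1d2, Per3, Tef and Hlf during the day in about that order, and Per1 and Per2 near dusk. Stomach holds such a clock, which follows meals as well as light.

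Signals are linear probe intensities, and differences are on the log2 scale after background correction and quantile normalization, always as the null-labelled array minus the wild-type-labelled array. A probe was detected where its signal was above nearly all of 1314 probes for olfactory and vomeronasal receptors, taken as background (detection p under 0.01). The 99th percentile of these probes was 200.4 on the wild-type-labelled array and 227 on the null-labelled array. A fold given as "at least" is a bound on this background-corrected scale alone, for a gene below background on 1 array, and the measured difference of every gene given one was smaller without background correction. The arrays went against their labels in ways that touch every direction below. Agr2 itself, the gene named as lost, read 972 on the wild-type-labelled array and 3406 on the null-labelled array, and no source used here places its probe inside or outside the deleted part. Xist, from the inactive X chromosome, was below background on the wild-type-labelled array (186) and at 1774 on the other, and Y-linked Eif2s3y read 2096 and 134, although both mice are labelled female. The Y-linked probes did not split cleanly: Kdm5d read 303 and 119, Ddx3y 5332 and 2138 (detected on both arrays), and Uty 209.6 and 245, just above the limit on both. Arrays are therefore named by their labels only. Genotype, sex, hour of collection and cell makeup of the samples cannot be told apart here.

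Of the 10 clock genes, 8 were detected on the wild-type-labelled array and 7 of these also on the null-labelled array. The output factor Dbp, the repressor Nr1d1, the output factor Tef and the period genes Per1 and Per2 were at least 2-fold lower on the null-labelled array, 5 of the 8. No member was at least 2-fold higher, and the activator Arntl had the highest difference, 1.73-fold. Among all 9359 genes detected on at least 1 array, 17.1% were at least 2-fold lower and 13.1% at least 2-fold higher by the same rule, and since the members were chosen on this contrast nothing is read from the comparison of shares. The median difference over the 8 members was -1.48, or -1.45 with Nr1d1 at its bound, beside 0.00 over all detected genes. Per3 and Hlf were below background on both arrays and carry no direction.

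**Figure D1:**
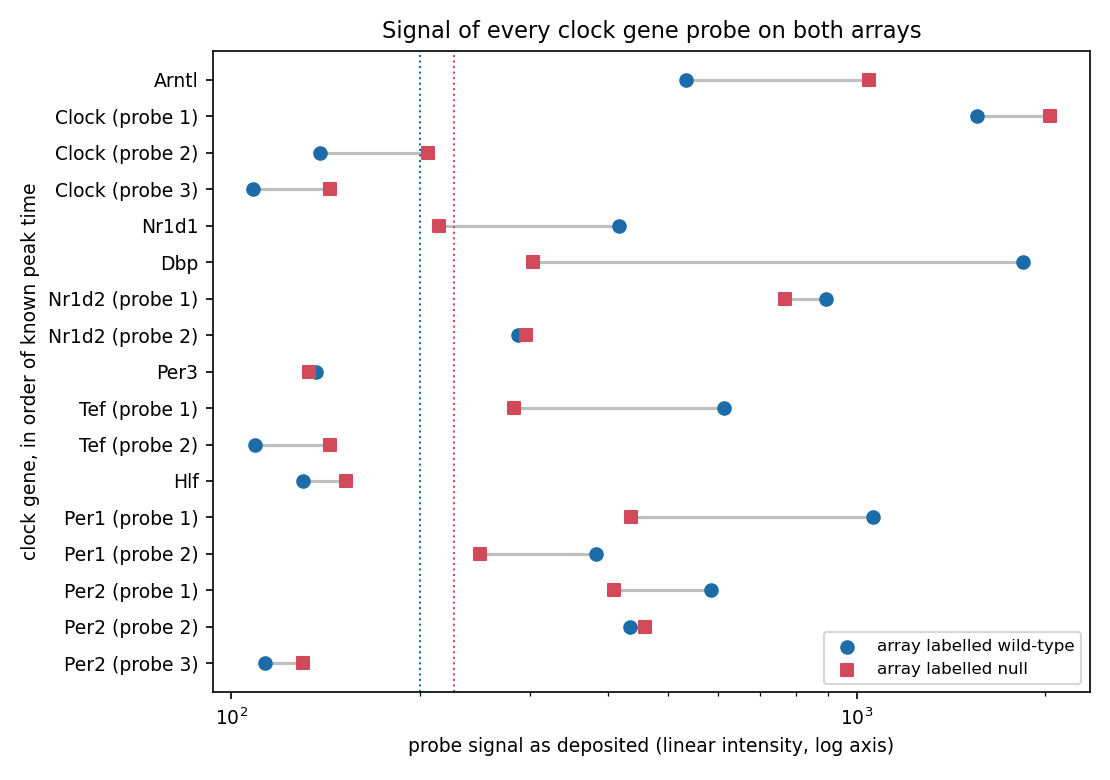
Signal of each of the 17 clock gene probes on the wild-type-labelled array (circles) and the null-labelled array (squares), on a log axis of linear intensity, with genes in the order of their known peak times and the probes of a gene ordered by brightness. Dotted lines mark the background limits given in the text, 200.4 and 227. Dbp read 1845 and 304 and Arntl 534 and 1046, and 6 probes lay below background on both arrays.

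The activators came first in phase order. Arntl (NCBI gene 11865), the non-redundant activator of the loop, read 534 on the wild-type-labelled array and 1046 on the null-labelled array. Its normalized difference was 0.79, and 1713 of the 9359 detected genes (18.3%) differed as far or farther in that direction. Arntl was thus the higher transcript on the null-labelled array, but by less than 2-fold. Clock (NCBI gene 12753), its partner and a histone acetyltransferase, read 1559.8 and 2037 by its 1 detected probe, a difference of 0.12. That is close to level: 44.3% of detected genes were as high or higher. Both other Clock probes were below background on both arrays, at 139 and 207 for the brighter of them.

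The RRE element through which REV-ERB receptors act on Arntl can be seen in the sequence at its start. The window shown was chosen because it holds both forms of the motif, and runs from 250 bases before to 50 after a RefSeq start of Arntl on GRCm38.p6, chr7:113207261-113207560, plus strand. Capitals mark TAGGTTA, whose first base lies 6 bases before the start, and TAGGTCA, which begins at base 31 counted from the start as base 1.
Arntl: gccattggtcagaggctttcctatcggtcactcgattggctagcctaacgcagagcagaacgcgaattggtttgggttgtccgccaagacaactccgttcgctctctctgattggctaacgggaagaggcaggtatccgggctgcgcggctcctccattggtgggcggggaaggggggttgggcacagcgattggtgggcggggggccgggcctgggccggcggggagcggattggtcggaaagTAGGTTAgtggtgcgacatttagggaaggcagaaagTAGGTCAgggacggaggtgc
Either form, on either strand, occurs in 4.0% of the 32851 windows of this length. A match describes letters only and shows no binding in these samples.

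The REV-ERB repressors did not move together in size. Nr1d1 (NCBI gene 217166), which encodes REV-ERB alpha, read 417 on the wild-type-labelled array and 215 on the null-labelled array, where it was below background. On the background-corrected scale it was at least 3.60-fold lower on the latter, with a measured difference of -2.02. The raw signals differed 1.94-fold and the difference without background correction was -1.19, so the size of the fold rests on that correction. Nr1d2 (NCBI gene 353187), which encodes REV-ERB beta and overlaps Nr1d1 in function, read 892 and 767 by its brighter probe, a difference of -0.60. Its dimmer probe read 288 and 296, a difference of -0.32 after normalization although the raw signal was slightly higher on the null-labelled array. Nr1d2 therefore stayed within 2-fold by either probe.

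The PAR bZIP output factors held the lowest member of the set. Dbp (NCBI gene 13170), a direct target of the ARNTL and CLOCK pair known for a deep daily rhythm, read 1845 on the wild-type-labelled array and 304 on the null-labelled array. It was 11.7-fold lower, a difference of -3.55, and 193 of 9359 detected genes (2.06%) were as low or lower, Dbp included. The dim signal was not far above background, so the fold depends on how background is corrected: the difference was -2.79 in the authors' processed values. Tef (NCBI gene 21685) read 612 and 283 by its detected probe, 3.88-fold lower, and its other probe lay below background on both arrays (109 and 144). Without background correction the Tef difference was -1.37. Hlf (NCBI gene 217082) read 130 and 153, below background on both. Of the 3 family members, 2 were thus lower on the null-labelled array and the third was not measurable.

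The period genes differed in degree and between probes. Per1 (NCBI gene 18626), the member that also answers acutely to hormones and cyclic AMP, had 2 detected probes. The brighter read 1061 and 436, which was 3.75-fold lower on the null-labelled array, and the dimmer read 383 and 250.01, which was 2.65-fold lower. Both Per1 probes thus differed in the same direction. Per2 (NCBI gene 18627), a core repressor of the loop, also had 2 detected probes, which disagreed in size. The brighter read 586 and 410, a 2.08-fold lower value, and the other read 433 and 459, a difference of -0.26 after normalization. Per2 passed the 2-fold line only by its brighter probe, and only with background fitted to the receptor probes and quantile normalization. Per3 (NCBI gene 18628) read 137 and 133, below background on both arrays.

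E-box and D-box letters were present at the starts of several of the lower members, and the windows of Nr1d1, Tef and Per1 are shown because these 3 genes were lower on the null-labelled array and hold such letters. All are from RefSeq on GRCm38.p6, 250 bases before to 50 after a start, written on the strand of the gene. Nr1d1 is at chr11:98775328-98775627 (minus strand), Tef at chr15:81811164-81811463 (plus strand) and Per1 at chr11:69098699-69098998 (plus strand). Capitals mark CACGTG (the E-box) in Tef and Per1, AACGTG (the reverse complement of the related CACGTT) in Nr1d1, and TTATGCAA (a D-box form) in Per1.
Nr1d1: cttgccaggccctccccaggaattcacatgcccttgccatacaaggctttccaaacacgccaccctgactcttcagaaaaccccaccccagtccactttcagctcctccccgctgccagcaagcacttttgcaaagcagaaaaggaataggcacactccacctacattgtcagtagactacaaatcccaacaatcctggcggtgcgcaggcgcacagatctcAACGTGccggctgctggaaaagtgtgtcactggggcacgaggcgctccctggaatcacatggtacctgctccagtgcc
Tef: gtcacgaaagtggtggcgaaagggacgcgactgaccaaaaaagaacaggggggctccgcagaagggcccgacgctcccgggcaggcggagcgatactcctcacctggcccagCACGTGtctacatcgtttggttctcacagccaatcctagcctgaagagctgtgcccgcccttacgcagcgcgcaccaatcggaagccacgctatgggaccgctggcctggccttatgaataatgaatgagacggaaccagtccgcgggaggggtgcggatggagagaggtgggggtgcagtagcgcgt
Per1: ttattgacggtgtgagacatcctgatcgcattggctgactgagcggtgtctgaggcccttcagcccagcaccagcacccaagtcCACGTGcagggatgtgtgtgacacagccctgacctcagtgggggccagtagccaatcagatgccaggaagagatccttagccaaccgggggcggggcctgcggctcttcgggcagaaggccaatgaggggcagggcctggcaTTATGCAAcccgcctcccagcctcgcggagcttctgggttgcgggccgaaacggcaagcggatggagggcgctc
The first base of the match lies 28 bases before the start in Nr1d1 and 138 in Tef, and in Per1 the E-box begins 166 and the D-box form 24 bases before it. Both strands were searched. The E-box CACGTG occurred in 7.15% of all windows and its variant CACGTT in 4.68%. A D-box, searched as TTATGTAA and as the form shown for Per1, occurred in 1.66%, and the cyclic AMP element TGACGTCA in 1.79%. No matches in the windows of the members overlapped. Of the 9 members with a window, 6 held at least 1 of these motifs: besides the 4 shown, Per3 held TTATGTAA at 2 places and Hlf held TGACGTCA. That count is per gene, over 14 windows and any of the motifs, and the other window of Per1 held none. The shares above are per window and per motif. No share of all genes with any of these motifs was computed, so the count of members has no background. The windows of Dbp, Clock and Nr1d2 held none of these letters, which says nothing of elements elsewhere in those genes. Per2 was not included in the search.

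Ordered by known phase, the detected members separated by direction. Both dawn genes were higher on the null-labelled array (0.79 and 0.12) and all 6 detected day and dusk genes were lower, from -0.60 for Nr1d2 to -3.55 for Dbp. The median was 0.45 over the dawn genes and -1.93 over the day and dusk genes, a gap of -2.39 on the log2 scale. Scaling to equal medians put the median of all genes at 0.12, a rise of 0.11, and on that scale Arntl was at 0.95 and Clock at 0.23. The higher side thus rests on Arntl, which stayed under 2-fold, with Clock nearly level. Whether the arrays differ in clock phase was not tested. Dbp, Nr1d1, Tef, Per1 and Per2 lay farthest from 0, followed by Arntl and Nr1d2, and Clock lay closest. The separation rests on 1 array per label and on members picked with these values known. Whether the gap exceeds that between 2 mice of the same genotype was not tested.

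**Figure D2:**
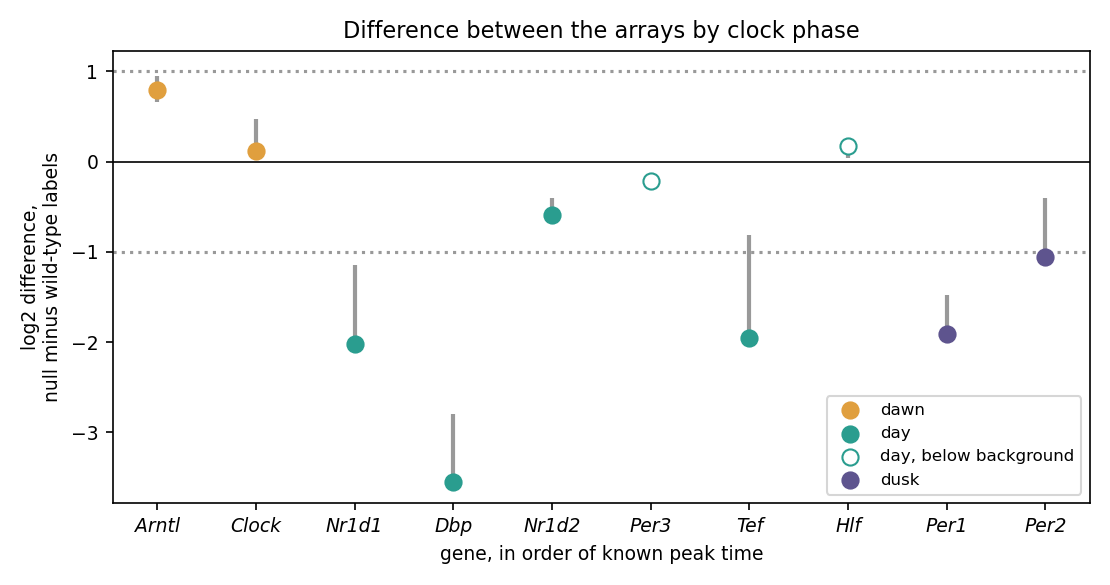
Log2 difference of each clock gene, null-labelled array minus wild-type-labelled array, by its brightest probe, with genes from left to right in the order of their known peak times and colours for dawn, day and dusk. Points are the reported values, open points are genes below background on both arrays, grey bars span the reported value and 5 alternative settings, and dotted lines mark 2-fold. The dawn genes lie above 0 and the 6 detected day and dusk genes below it, with Dbp lowest at -3.55.

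Other genes of the loop were mixed. Of 16 listed, 14 had a probe and 11 were detected; 5 were at least 2-fold lower (3 with genes taken at their bounds), 1 was higher and 5 differed by less than 2-fold. Nearly all of these calls depended on background correction: without it 1 gene was at least 2-fold lower and 0 higher, and in the authors' processed values 0 were past 2-fold either way. The list median was 0.05, and over all detected genes 17.1% were at least 2-fold lower and 13.1% higher. Rora, which encodes a ROR receptor that activates Arntl through the same RRE elements, read 340 and 229 (2.63-fold lower), but its difference was -0.80 without background correction. Cry2, a cryptochrome repressor, read 223 and 162 and Ciart, a repressor of the ARNTL and CLOCK pair named Gm129 in the files, 232 and 172. Both were below background on the null-labelled array, at least 1.28-fold and at least 1.39-fold lower.

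Of the remaining loop genes 2 passed the 2-fold line, and the others differed by less or were not measurable. Bhlhe40 (Bhlhb2 in the files), an E-box repressor, read 2110.2 and 3075, a difference of 0.29. Csnk1d, a kinase that marks PER proteins, differed by 0.14 by the brightest of its 5 probes. The related kinase Csnk1e gave 0.26 and -0.78 by its 2 probes and has no settled direction. Btrc, part of the ligase that degrades PER proteins, differed by 0.05 and Timeless, a replication fork protein, by 0.22. Sirt1, a deacetylase that acts on clock proteins, read 232 and 482 (2.42-fold higher), with a difference of 0.81 without background correction. Prkaa2, a subunit of the energy-sensing AMP kinase, read 481 and 276 (3.01-fold lower) by its brighter probe. Averaged with its other probe, below background on both arrays (143 and 196), its difference was -0.45. Npas2 (146 and 206), Cry1 (93.6 and 119) and Bhlhe41 (109 and 113) were below background on both arrays. Nfil3 was not analysed here.

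Of the genes known to follow the clock in many organs, some were lower on the null-labelled array and the others differed by less than 2-fold. Of 15 listed, 14 had a probe and 11 were detected, of which 6 were at least 2-fold lower, 0 higher and 5 closer than 2-fold, beside 17.1% lower and 13.1% higher over all genes. Averaged over probes 4 were lower. Alas1, the first enzyme of haem synthesis, differed by -0.24, and Nampt, an enzyme of NAD synthesis, by -0.53. The Nampt difference was 0.43 averaged with its other probe, which was below background on the wild-type-labelled array. The list median was -1.29. Usp2, a deubiquitinase that oscillates in most mouse organs, read 1151 and 169, at least 12.0-fold lower on the background-corrected scale, by 1 of its 3 probes, the only one detected. Its raw signals differed 6.80-fold, and the difference was -2.97 without background correction. Wee1, a mitotic kinase under E-box control, read 414 and 220.05 (at least 3.56-fold lower), and Avpr1a, a vasopressin receptor, 492 and 195 (at least 4.49-fold lower). Without background correction these 2 genes differed by -1.15 and -1.57. Hsd11b1, which regenerates active glucocorticoid, read 542 and 335 (2.55-fold lower) by the brightest of its 4 probes, and its other detected probes gave -0.40 and -1.20. Ccrn4l, the deadenylase Nocturnin, read 1503 and 823 (2.44-fold lower) by its brighter probe, while its other probe differed by 0.20. Tsc22d3, a glucocorticoid-induced leucine zipper protein that also cycles in most organs, read 6846 and 2689 (3.09-fold lower) by its brighter probe. Averaged with its other probe, below background on both arrays (188 and 227), its difference was -0.72. Whether each of these genes is rhythmic in the stomach cannot be seen from 2 arrays.

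Glucocorticoid hormone drives Per1 and peaks near dusk in mice, and its targets were read beside Per1. Of 11 measured, all detected, 5 were at least 2-fold lower, 2 were higher and 4 differed by less than 2-fold. The list median was -0.97, and over all detected genes 17.1% were at least 2-fold lower and 13.1% higher. The kinase gene Sgk1 read 11289 and 2299 (6.07-fold lower) and Fkbp5, a co-chaperone of the receptor, 1376 and 465 (4.56-fold lower). Mt2, a metallothionein, was 2.46-fold lower and Pdk4, a mitochondrial kinase, 2.29-fold lower, but both were inside 2-fold in the authors' processed values (-0.92 and -0.84), where 3 of the 11 were lower. The members that were higher were Errfi1 (2.10-fold) and Lcn2 (at least 21.1-fold), and Lcn2 is also a neutrophil product. Tsc22d3 and Cdkn1a are shared with the list of clock-following genes. The part of this hormone in the Per1 difference was not tested.

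Markers of several cell types differed between the arrays along with the clock genes. Over all detected genes 17.1% were at least 2-fold lower on the null-labelled array and 13.1% higher. Of 10 detected smooth muscle markers, all 10 were at least 2-fold lower on the null-labelled array, or 9 with Cnn1 at its bound of 1.88-fold, and the summed signal of the 11 measured was 121685 against 30299. Mylk, Myh11 and Tagln, contractile genes, were 10.6-fold, 9.37-fold and 8.91-fold lower. Of 8 detected squamous markers 7 were lower and 1, Ivl, was higher (at least 4.82-fold), with sums of 122257 and 5533, and the keratin genes Krt5 and Krt14 were below background on the null-labelled array. Of 11 acinar markers 10 were lower (sums of 94015 and 18741), with Ela2a, Pnlip and Try4 below background there. All 6 detected parietal markers were lower (sums of 153804 and 5419.7), with Atp4a 328-fold and Atp4b 181-fold lower, and 5 of 6 detected neutrophil markers were higher (sums of 3784 and 33503). The squamous and acinar signals of the wild-type-labelled array stand beside a label of glandular stomach, so the pieces of tissue taken may have been unlike. The clock runs in most of these cell types. Fewer cells of a type, less RNA per cell and unlike pieces of tissue cannot be told apart here. The part of cell makeup in the clock gene differences was not tested.

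**Figure D3:**
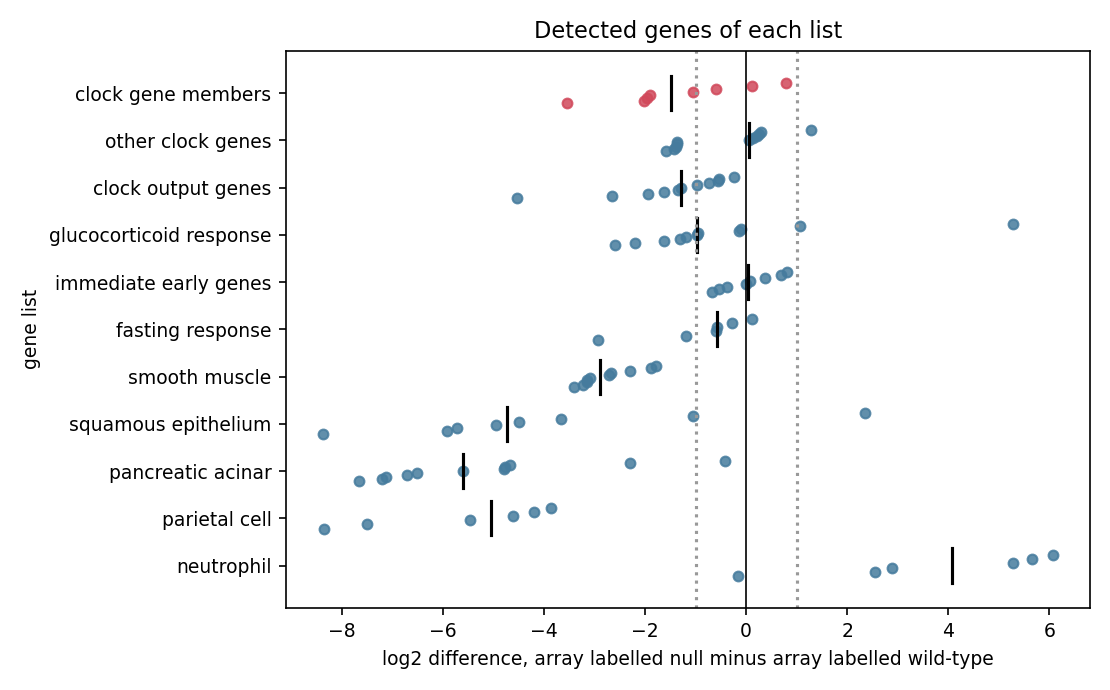
Log2 difference of every detected gene of each list, null-labelled array minus wild-type-labelled array. Points are genes by their brightest probe (genes below background on 1 array at their measured value), black bars are list medians, and dotted lines mark 2-fold. The clock gene members span -3.55 to 0.79 and the genes that follow the clock lie at or below -0.24, whereas the cell type markers reach -8.38 (Krt14) and 6.08 (S100a8).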

How the data were processed

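Biotin-labelled total RNA was hybridized to 1 array per label. The authors deposited linear intensity values that were not normalized. Judged from its values, their processed table holds the same intensity values times 0.960 (wild-type label) and 0.842 (null label). Mean signals were 811 and 925; other upstream steps do not appear in the labels. The deposited intensities were corrected by limma's normexp method (limma 3.58.1, R 4.3.3) with 1314 olfactory and vomeronasal receptor probes in place of control probes (offset 16), then quantile normalized and log2 transformed. The brightest probe on average represents a gene. A gene below background on 1 array has a bound, computed against the higher of its own value and the lowest detected value there. The steps were tested on simulated arrays, with changes placed only in genes well above background. Nr1d1, Tef and Per2 were dimmer on average than the genes changed there, so folds such as theirs were not checked. The Dbp fold was larger than any change placed there, so its size was not checked either. Members and lists were chosen with earlier results of these data known. Gif was taken off the parietal list after its value was seen, since mouse chief cells make it. The text names every member and every other loop gene with a probe, genes that check the labels, and up to 5 detected genes per further list, by size of difference from 2-fold up, or else the 2 brightest; not all are printed, some items are not reported here, and genes outside this rule (Jun, Atf3, Angptl4, Txnip, Ivl, Cdkn1a, Ccrn4l, Errfi1, Alas1, Nampt, Cnn1, Uty) were chosen after their values were seen. With 2 arrays no likeness between genes was computed. Sequences are RefSeq windows (GRCm38.p6), with 9 of 10 members matched by symbol.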

Additional observations from a re-analysis of the deposited data

How the results depend on the processing

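With 1 array per label no replicate could be left out, and no paired analysis was possible because each label has a single array. Differences of the 8 detected members kept their direction under 7 other settings and under 1 chosen after seeing the data (genes below background at their bound), except that Nr1d1 has no value among genes detected on both arrays. Per2 fell inside 2-fold without background correction (-0.80), with the correction fitted on all probes and an offset of 50 (-0.87), with scaling to equal medians (-0.90), in the authors' processed values (-0.70) and averaged over probes (-0.41), and Tef when averaged over probes (-0.82), an average that takes in probes below background. Members at least 2-fold lower then numbered 3 when averaged over probes and 4 or 5 otherwise. The member median was -0.64 averaged over probes and -0.83 without the detection filter. The gap of day and dusk from dawn genes was -1.67 without background correction and -1.71 in the authors' processed values, and lay between -1.86 and -2.39 elsewhere. Genes at least 2-fold higher and lower numbered 679 and 1012 without background correction, 799 and 933 in the authors' processed values, 808 and 816 over genes detected on both arrays, beside 1227 and 1597. Signal over background limits Nr1d1, Dbp, Tef and the dimmer probes of Per1 and Nr1d2, since the null-labelled array read each of them at 304 or less.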

Other observations

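Genes that answer to acute stimulation within minutes, among which Per1 is sometimes counted, did not pass 2-fold in either direction. Of 10 immediate early genes 8 were detected and all 8 were within 2-fold, with a median of 0.04. Most detected genes were within 2-fold as well, since 17.1% were at least 2-fold lower and 13.1% at least 2-fold higher. Fos, a subunit of the AP-1 transcription factor, read 2725 on the wild-type-labelled array and 5187 on the null-labelled array, a difference of 0.70, and Egr1, a zinc finger factor, read 3011 and 6142, a difference of 0.80. Jun differed by -0.53 and Atf3 by -0.68. Per1 (-1.91) lay below all 8 of them. The part of acute stimulation in the Per1 difference was not tested.

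Feeding sets the clock of digestive organs, and genes that rise with fasting were read for that reason. Of 8 listed 6 were detected, 2 were at least 2-fold lower on the null-labelled array, 0 were higher and 4 differed by less than 2-fold. The list median was -0.59, and the shares over all detected genes were 17.1% lower and 13.1% higher. Ppargc1a, a coactivator of mitochondrial genes, read 510 and 184 (at least 4.71-fold lower on the background-corrected scale, a difference of -1.70 without the correction) and Pdk4, which spares glucose, read 684 and 436 (2.29-fold lower). Angptl4, a lipase inhibitor, differed by -0.28 and Txnip, a thioredoxin inhibitor, by 0.12. Pdk4 is also on the glucocorticoid list, and in the authors' processed values 1 of the 6 was at least 2-fold lower.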
